A study of Homo sapiens with 3 samples.

Results

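The 10 genes described here handle adenosine outside and inside the cell. They are the receptor genes ADORA1, ADORA2A, ADORA2B and ADORA3, the equilibrative nucleoside transporter genes SLC29A1 and SLC29A2, the ecto-enzyme gene NT5E, and the enzyme genes ADK, ADA and AHCY. They were chosen by name, with earlier results of these data known, and they were found on the arrays through the RefSeq accession of each probe. All 10 genes had a probe, with 12 probes in 21 spots, of 22430 named genes and 58201 probes in 60901 spots. The cells were TK-10, an established human renal carcinoma line, and each condition was 1 RNA sample on 1 single-colour Agilent array. The control array held cells given 0.1% DMSO, the cordyceps array held cells labelled as given cordyceps at 750 ug/mL, and the sunitinib array held cells given sunitinib, a receptor tyrosine kinase inhibitor, at 10 uM. All cells were sampled at 48 h and had grown in the same medium, which contained serum, nicotinamide, troglitazone and zinc sulfate. For these cells the paper instead names DMEM with serum and penicillin-streptomycin, and it lists none of those other additions. The study's methods name purified cordycepin at another concentration for the array experiment, and the files do not settle which was applied, so the array is called by its label. Cordycepin is an adenosine analogue that lacks the hydroxyl group at the ribose 3′ position.

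Extracellular ATP is taken apart at the cell surface by ecto-enzymes to AMP, and CD73, the product of NT5E, turns AMP into adenosine. Adenosine then binds G protein-coupled receptors, of which A1 and A3 act through Gi and lower cAMP, while the products of ADORA2A and ADORA2B act through Gs and raise it. Equilibrative transporters carry adenosine across the plasma membrane, adenosine kinase returns it to AMP, adenosine deaminase turns it into inosine, and AHCY releases adenosine and homocysteine from S-adenosylhomocysteine. Adenosine kinase is also the enzyme known to phosphorylate cordycepin inside cells, and adenosine deaminase is known to inactivate it. In the kidney, adenosine is known for its part in tubuloglomerular feedback.

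Of the members, 1 gene was over 2-fold higher than control on each treated array, where 2.94% of all genes compared were so for cordyceps and 6.41% for sunitinib. ADORA2B, which encodes the low-affinity A2B receptor, was 2.90-fold higher on the cordyceps array than on the control array. SLC29A2, which encodes the transporter ENT2, was at least 3.06-fold higher on the sunitinib array than on the control array, a call that was lost without scaling, with normexp background correction, or when both arrays had to measure it well above background. The kinase, deaminase and hydrolase genes ADK, ADA and AHCY were within 2-fold of control on both treated arrays after scaling. With 1 array in each condition and 0 replicate arrays, no difference could be tested, and every ratio below compares 2 arrays and not 2 treatments. Both ratios of a gene share the 1 control array, so they are not independent of each other.

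The members were read against the quality of the 3 arrays. The signal at the 75th percentile of an array, to which each array was scaled, was 165 on the control array, 138 on the cordyceps array and 78.3 on the sunitinib array. The share of probes well above background, as marked by the scanner software, was 45.5% on the control array, 37.8% on the cordyceps array and 38.3% on the sunitinib array. The cordyceps array carried a bright area of 578 spots, and 0 member spots lay in it. Of the renal epithelial markers with a probe, 9 of 10 were well above background on every array, PAX8 and EPCAM among them, while CA9 was on none. Blood markers were well above background in 1 or 2 of 4 genes, endothelial markers in 1 or 2 of 3, and fibroblast markers in 3 of 3 on each array. The fibroblast markers did not move together: after scaling, the log2 ratios of cordyceps and sunitinib over control were -2.05 and -2.71 for the collagen gene COL1A1, -1.80 and -3.43 for the proteoglycan gene DCN, and -0.18 and 0.66 for the growth factor receptor gene PDGFRB. The renal epithelial markers well above background differed among themselves too. Their scaled log2 ratios ran from -2.38 for CDH6 to 0.13 for KRT18 for cordyceps over control. For sunitinib over control they ran from -0.93 for LHX1 to 0.77 for PAX2. The part of the marker genes in the ratios below was not tested. In a bulk RNA sample, fewer cells of a kind and less RNA per cell cannot be told apart.

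The stretches upstream of ADORA2B and NT5E are shown because ADORA2B had the largest measured ratio of the members and NT5E was the 1 compared member lower on the cordyceps array. Each holds the 250 bases before the RefSeq start site on GRCh38.p14. In ADORA2B (chr17:15944880-15945129, plus strand) capitals mark GCGTG, a core of hypoxia response elements, at position -229 from the start site and TGACG, the short core of the cAMP response element, at -226, which share letters. In NT5E (chr6:85449833-85450082, plus strand) capitals mark TGACG at -127.
ADORA2B: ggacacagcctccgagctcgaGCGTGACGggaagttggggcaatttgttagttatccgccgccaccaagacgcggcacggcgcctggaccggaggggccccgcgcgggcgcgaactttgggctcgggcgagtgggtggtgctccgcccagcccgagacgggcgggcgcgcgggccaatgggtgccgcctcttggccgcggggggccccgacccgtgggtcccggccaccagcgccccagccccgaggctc
NT5E: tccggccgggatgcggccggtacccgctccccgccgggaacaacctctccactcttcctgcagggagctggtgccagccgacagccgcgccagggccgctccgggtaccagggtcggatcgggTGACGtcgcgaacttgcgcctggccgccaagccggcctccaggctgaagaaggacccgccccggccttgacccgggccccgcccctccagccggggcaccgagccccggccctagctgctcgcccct

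Both strands were searched for TGACG, for the hypoxia core as ACGTG or GCGTG, and for the NF-kB consensus. Windows were found for 8 members, 12 windows in all, and ADORA2A and SLC29A2 had none in the table. Of 35116 windows of the same length over all genes, 21.2% held TGACG, 43.2% held a hypoxia core and 5.21% held the NF-kB consensus. No member window held the NF-kB consensus. The windows of ADORA2B and NT5E each had a GC content of 75.2%, against a median of 58% over all windows. The other member windows ran from 47.2% for ADORA3 to 80% for ADA, with 73.2% and 74.4% for SLC29A1. TGACG was also found for ADK, and hypoxia cores also for SLC29A1, ADK, ADA and AHCY. High GC content and these motifs were thus not particular to ADORA2B and NT5E. Such matches are common, and they describe the letters of these windows only.

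Detection divided the members into 3 sets. ADORA2B, SLC29A1, NT5E, ADK, ADA and AHCY, 6 genes, were well above background on all 3 arrays. SLC29A2 was well above background on 1 array, the sunitinib array. ADORA1, ADORA2A and ADORA3, 3 genes, were well above background on no array, so ADORA2B was the 1 receptor gene of 4 with a measured level.

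**Figure D1:**
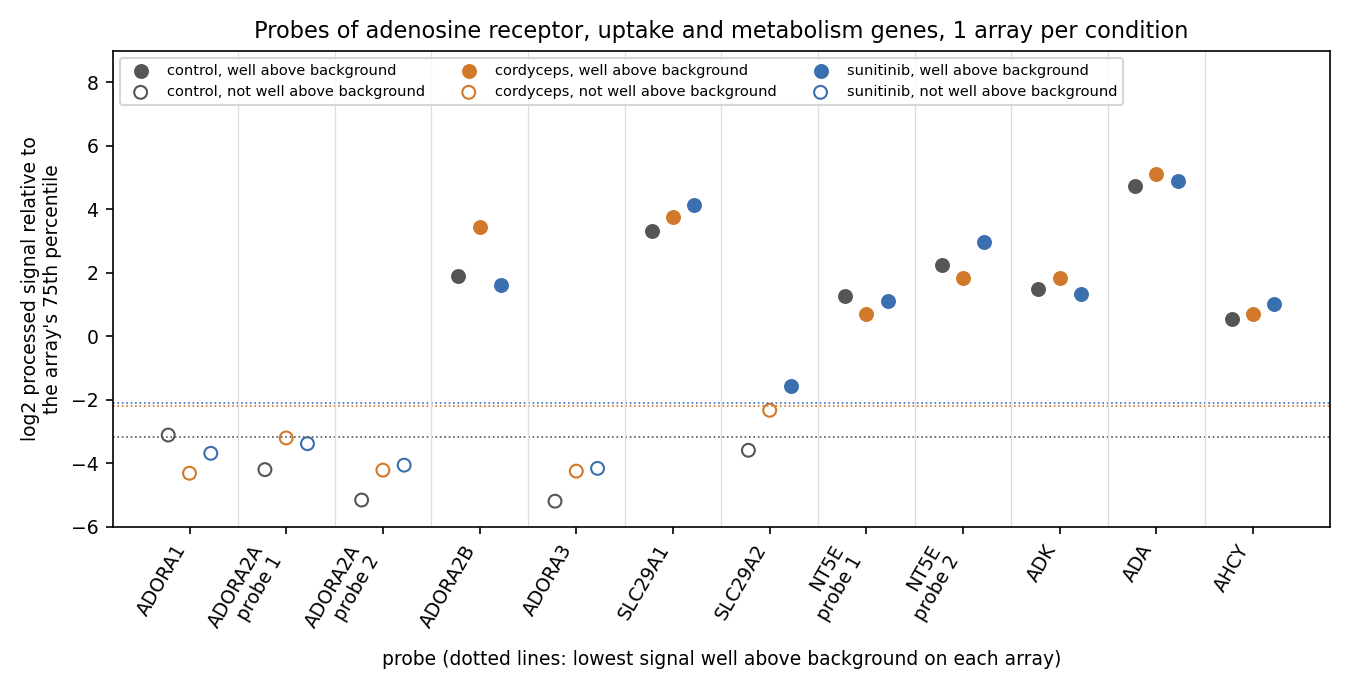
The y axis gives the log2 processed signal relative to the 75th percentile of the array for each of the 12 member probes (x axis) on the control, cordyceps and sunitinib arrays, 1 point per array. Open points were not well above background, and dotted lines mark the lowest signal well above background on each array. ADORA2B on the cordyceps array sits at 3.43, above 1.90 on the control and 1.63 on the sunitinib array.

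ADORA1, the gene of the Gi-coupled A1 receptor, had processed signals of 19.1 on the control array, 6.93 on the cordyceps array and 6.08 on the sunitinib array. ADORA3, the gene of the A3 receptor, had signals of 4.50, 7.26 and 4.38 in the same order. The medians of 308 negative control spots on these arrays were 4.37, 7.18 and 4.33, so the ADORA3 probe lay beside the negative controls on each array. The ADORA1 signal on the control array was above the 95th percentile of the negative controls there, 5.10, but its spot was not marked as well above background. ADORA2A, the gene of the high-affinity Gs-coupled receptor, has a pair of probes. The first had signals of 8.97 on the control, 15.0 on the cordyceps and 7.51 on the sunitinib array, and the second had 4.62, 7.42 and 4.70. Since neither probe was well above background on any array, no ratio is given for ADORA2A, nor for ADORA1 and ADORA3.

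ADORA2B had signals of 613 on the control array, 1489 on the cordyceps array and 243 on the sunitinib array. Relative to the 75th percentile of each array these were log2 levels of 1.90, 3.43 and 1.63, so the cordyceps array was the highest and the others lay close together. The log2 ratio of cordyceps over control was 1.54, with a combined error of 0.20 from the signal errors that the scanner software gave. The limit of technical error, the 95% limit that the combined error gives, was 0.40 for this ratio. This limit comes from the software's own error estimate for each signal and does not cover the spread between cultures. It is not a measured spread of spots. The median combined error over all genes measured was 0.21 in both comparisons, so most limits are much alike. Repeated spots of a probe had a smaller median SD, 0.049 on the control, 0.056 on the cordyceps and 0.059 on the sunitinib array. The ADORA2B ratio ranked 109 from the highest of 13030 genes measured on both arrays. It exceeded 2-fold in 12 of 12 alternative processings, from 1.28 without scaling to 1.76 with each array scaled to its median. Changes of the detection filter or of the choice of probe could not move this ratio. ADORA2B had 1 probe, which was well above background on all 3 arrays. Sunitinib over control gave -0.26 for ADORA2B, inside its limit of 0.40, although without scaling the value was -1.34. Cordyceps over sunitinib gave a log2 ratio of 1.80 for ADORA2B, or 3.49-fold, with a combined error of 0.21. ADORA2B was thus higher on the cordyceps array than on either other array.

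SLC29A1 encodes ENT1, the transporter that carries adenosine and many nucleoside drugs across the plasma membrane. Its signals were 1637 on the control, 1876 on the cordyceps and 1372 on the sunitinib array. The scaled log2 levels were 3.31, 3.77 and 4.13, so the order after scaling differed from the order of the signals. Cordyceps over control was 0.45 on the log2 scale, or 1.37-fold, past its limit of 0.40. Sunitinib over control was 0.82, or 1.76-fold, also past its limit of 0.40, but it was -0.25 without scaling. SLC29A1 was therefore within 2-fold on both treated arrays. Its sunitinib ratio kept its sign in 11 of 12 alternatives and turned only without scaling. There the median over all genes was -1.05, so that turn carries the lower brightness of the whole sunitinib array.

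SLC29A2, the gene of the second equilibrative transporter ENT2, had signals of 13.7 on the control, 27.4 on the cordyceps and 26.4 on the sunitinib array. The sunitinib signal was well above background and the other two were not. The cordyceps signal was below the lowest signal well above background on that array, 30.2, so no ratio is given there. On the sunitinib array that lowest signal was 18.3. The scaled log2 levels of SLC29A2 were -3.59 on the control, -2.33 on the cordyceps and -1.57 on the sunitinib array. Both treated arrays thus lay above the control array, and a difference particular to sunitinib cannot be read from the call. Against the lowest signal well above background on the control array, 18.2, SLC29A2 was at least 3.06-fold higher on the sunitinib array, a log2 bound of 1.61. This bound exceeded 2-fold in 9 of 11 alternatives, the exceptions being 0.54 without scaling and 0.84 with normexp, and it could not be had where both arrays had to measure the probe. SLC29A2 was dim on every array, so its bound rests on signals near the limit of detection.

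NT5E encodes CD73, the surface enzyme that makes adenosine from AMP, and a pair of probes measured it. Probe 2, which had the higher mean log2 level and stands for the gene, had signals of 777 on the control, 499 on the cordyceps and 617 on the sunitinib array. Probe 1 had signals of 394, 223 and 171 in the same order. On the cordyceps array both probes were lower than on the control array, by log2 ratios of -0.38 for probe 2, inside its limit of 0.40, and -0.57 for probe 1, past its limit of 0.41. On the sunitinib array the probes differed in sign, with 0.74 for probe 2, past its limit of 0.40, and -0.13 for probe 1, inside its limit of 0.41. Without scaling, probe 2 was -0.33 for sunitinib over control, and the mean of both probes after scaling was 0.30. NT5E was thus lower on the cordyceps array by both probes, and its direction on the sunitinib array was not settled. Cordyceps over sunitinib was -1.12 for probe 2 and -0.44 for probe 1.

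ADK, the gene of adenosine kinase, was printed in 10 spots, which gives the spread within an array. On the control array the spots had signals from 432 through a median of 469 to 483, on the cordyceps array from 462 through 494 to 506, and on the sunitinib array from 189 through 197 to 215. The scaled log2 levels ran from 1.39 to 1.55 on the control array with a median of 1.51, from 1.74 to 1.88 on the cordyceps array with a median of 1.84, and from 1.27 to 1.46 on the sunitinib array with a median of 1.33. The spots on the cordyceps array lay above all control spots, while the sunitinib and control spots overlapped. Such separation was common: of 281 probes printed in 10 spots, 63.7% had no overlap between the cordyceps and control arrays, and of 270 such probes 75.6% had none between sunitinib and control. Spots of 1 array share 1 RNA sample and are not replicates of a treatment.

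**Figure D2:**
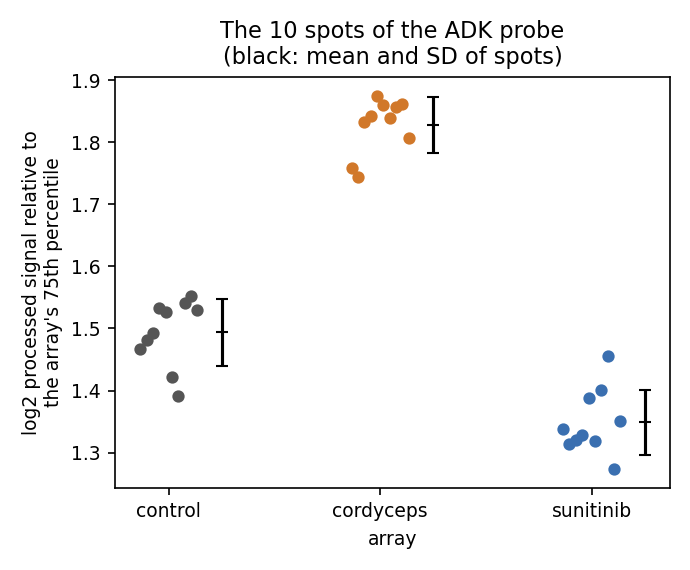
The y axis gives the log2 processed signal of ADK relative to the 75th percentile of the array, for each of 10 spots on the control, cordyceps and sunitinib arrays (x axis). The cordyceps spots, from 1.74 to 1.88, do not overlap the control spots, from 1.39 to 1.55, and the sunitinib spots, from 1.27 to 1.46, do.

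The log2 ratio of ADK was 0.33 for cordyceps over control, inside its limit of 0.40, and -0.14 for sunitinib over control, inside its limit of 0.41. Without scaling these were 0.08 and -1.22. Among the 10 ADK spots, 1 neighbouring spot was over 16-fold brighter, and no other member had such a neighbour. The combined error was 0.21 for both, so the cordyceps ratio of ADK exceeded the error but not the 95% limit. That error was averaged over the 10 spots and was not reduced for their number. The standard error of the mean log2 level over the spots was 0.017 on the control, 0.014 on the cordyceps and 0.017 on the sunitinib array. The limits of ADK are therefore wider than the spread of its spots.

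ADA, the gene of adenosine deaminase, had signals of 4406 on the control, 4738 on the cordyceps and 2331 on the sunitinib array. The scaled log2 levels were 4.74, 5.10 and 4.90. ADA was 0.36 for cordyceps over control and 0.16 for sunitinib over control, each inside its limit of 0.40, and the sunitinib value was below 0 in 3 alternatives, at -0.18 with median scaling, -0.92 without scaling and -0.19 with normexp. ADA thus stayed close to its control level on both treated arrays after scaling. AHCY, the gene of S-adenosylhomocysteine hydrolase, had signals of 238 on the control, 223 on the cordyceps and 160 on the sunitinib array. Its log2 ratio was 0.16 for cordyceps over control, inside its limit of 0.42, and -0.10 without scaling. For sunitinib over control it was 0.50, or 1.41-fold, past its limit of 0.41, and -0.58 without scaling. The direction of AHCY held in 11 of 12 alternatives in each comparison and turned only without scaling. In that setting the median over all genes was -0.24 for cordyceps and -1.05 for sunitinib.

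**Figure D3:**
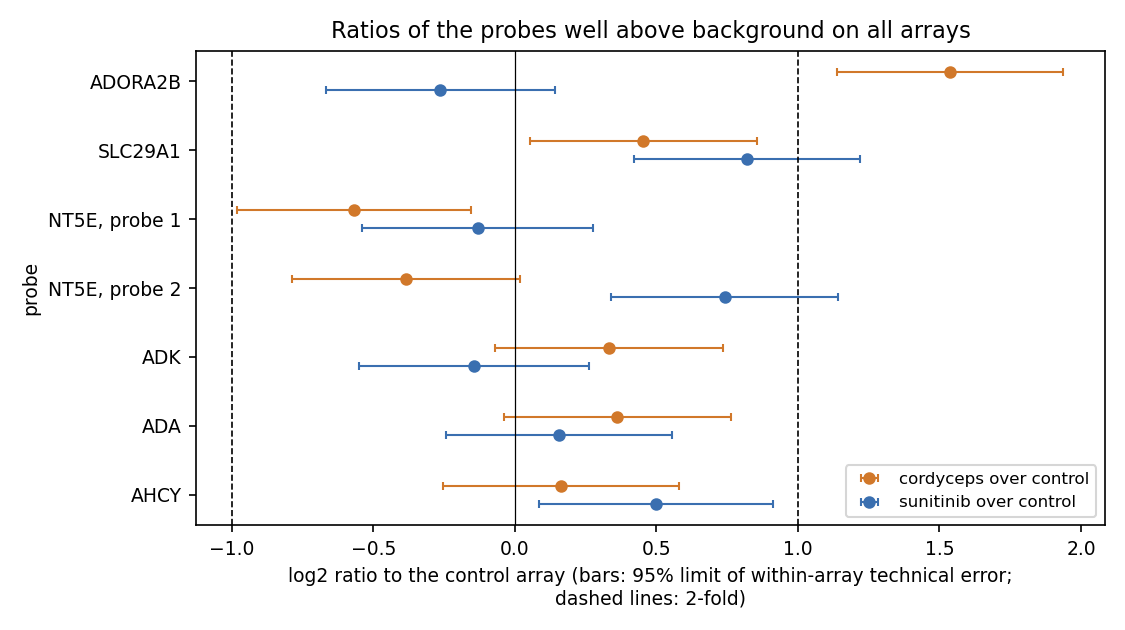
The x axis gives the log2 ratio of each treated array over the control array. The y axis gives the member probes well above background on all 3 arrays. Bars give the 95% limit of technical error from the software's error estimates, and dashed lines mark 2-fold. ADORA2B stands at 1.54 for cordyceps, and SLC29A2, not well above background on every array, is not drawn. The sunitinib values of SLC29A1, NT5E probe 2, ADA and AHCY turned below 0 without scaling, where the median over all genes was -1.05.

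For cordyceps over control, 6 members could be compared, of which 1 was over 2-fold higher, against 2.94% of 14773 genes, and 0 were over 2-fold lower, against 2.73%. By any amount 5 members were higher and 1 was lower, where 6820 of all genes were higher and 7071 lower, with a median log2 ratio of 0.35 beside 0.00 over all genes. For sunitinib over control, 7 members could be compared, of which 1 was over 2-fold higher, against 6.41% of 14894 genes, and 0 were over 2-fold lower, against 6.49%. By any amount 5 members were higher and 2 lower, where 6736 of all genes were higher and 7247 lower, with a median of 0.50 beside 0.00 over all genes. Past the limit of technical error were 2 of 6 members for cordyceps, against 28.3% of 13030 measured genes, and 3 of 6 for sunitinib, against 44.4% of 12992. Each count over 2-fold rests on 1 gene, ADORA2B for cordyceps and SLC29A2 for sunitinib, so the counts say little of the members as a set.

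**Figure D4:**
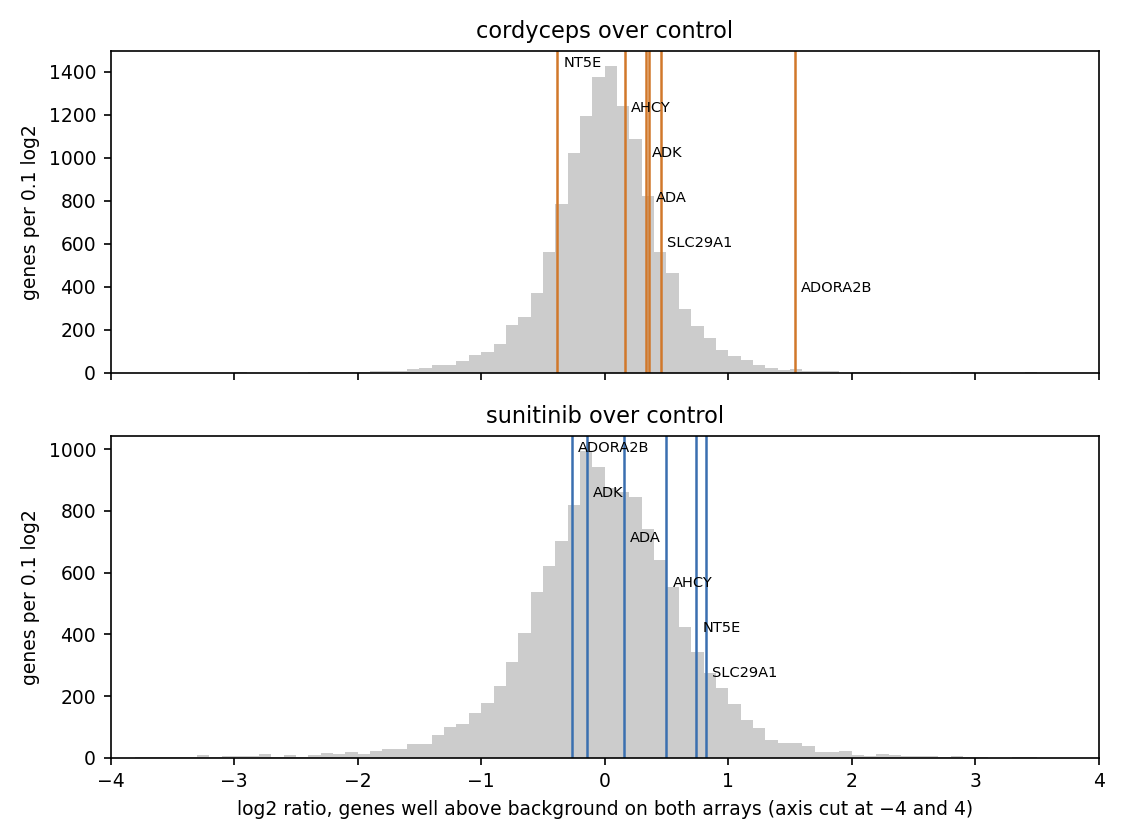
Histograms of the log2 ratio (x axis) over the genes measured on both arrays (y axis, number of genes) for cordyceps over control and sunitinib over control, with the measured members marked. The quartiles of all genes were -0.25 and 0.27 for cordyceps and -0.37 and 0.39 for sunitinib, and ADORA2B at 1.54 lies in the upper tail for cordyceps.

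The other genes of the pathway were read from a list of 78 names, of which 77 had a probe. For cordyceps over control 53 could be compared, with 1 over 2-fold higher, 2 over 2-fold lower and a median of 0.00. For sunitinib over control 55 could be compared, with 4 over 2-fold higher, 2 over 2-fold lower and a median of -0.11. These counts lie near the shares over all genes given above.

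Of the list of surface and secreted proteins around extracellular nucleotides, 4 genes could be compared. The ecto-enzyme gene ENPP1 and the peptidase gene DPP4, 2 genes, were over 2-fold lower on both treated arrays. Over all genes compared, 2.73% were so for cordyceps and 6.49% for sunitinib. Both ratios of each gene use the same control array. ENPP1, whose product splits ATP into AMP and pyrophosphate, had signals of 527 on the control, 163 on the cordyceps and 87.2 on the sunitinib array, and log2 ratios of -1.44 and -1.52. Its second probe gave -1.81 and -1.47, and ENPP1 was over 2-fold lower in 12 of 12 alternatives in both comparisons. Changes of the detection filter could not move these ratios, since both probes were well above background on every array. DPP4, whose product binds adenosine deaminase at the cell surface and does not itself break down nucleotides, had signals of 319, 110 and 47.9 and log2 ratios of -1.28 and -1.66, which were within 2-fold with normexp in both comparisons, at -0.87 for cordyceps. ENPP1 and DPP4 were thus lower beside an NT5E that was within 2-fold. ENTPD2, an ecto-ATPase gene, had log2 ratios of -0.39 and 0.07.

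Of the other nucleoside transporters, 2 of 5 genes could be compared. SLC29A3, the gene of the lysosomal and mitochondrial transporter ENT3, had log2 ratios of -0.55 for cordyceps and 0.70 for sunitinib, the latter -0.37 without scaling. SLC29A4, the gene of the monoamine and adenosine transporter PMAT, had 0.05 and 0.20. Both were within 2-fold, as SLC29A1 was.

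Beyond ADK and ADA, 17 genes of purine interconversion and salvage could be compared in each comparison. For cordyceps 12 were higher by any amount and 5 lower, and for sunitinib 2 were higher and 14 lower, while over all genes both directions were about equally frequent, as given above. Without scaling the counts were 6 and 11 for cordyceps and 0 and 17 for sunitinib. The direction for cordyceps thus turned without scaling, where the median over all genes was -0.24. PNP, the gene of the phosphorylase that acts on inosine after adenosine deaminase, was the 1 gene over 2-fold by the probe used. For cordyceps, 2.94% of all genes compared were over 2-fold higher. PNP had signals of 1346 on the control, 2600 on the cordyceps and 564 on the sunitinib array. Its log2 ratio was 1.21 for cordyceps, within 2-fold without scaling (0.95) and with normexp, and -0.18 for sunitinib. At the low end was AMPD3, an AMP deaminase gene, with -0.73 for cordyceps and -0.89 for sunitinib. AK3, a mitochondrial adenylate kinase gene, was the highest for sunitinib at 0.56.

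Around AHCY, 8 methionine cycle genes could be compared and none was over 2-fold from control. NNMT, the gene of nicotinamide N-methyltransferase, was the lowest for cordyceps at -0.81, and MAT2B, a regulatory subunit of S-adenosylmethionine synthetase, the highest at 0.15. MAT2A, the catalytic subunit of that enzyme, was the lowest for sunitinib at -0.85, and AHCYL2, a relative of AHCY, the highest at 0.78, which became -0.29 without scaling.

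Downstream of the receptors, the genes of G proteins and adenylyl cyclases gave 11 comparisons for cordyceps, from -0.71 for GNAI3, a Gi subunit, to 0.19 for GNAI1, another Gi subunit. For sunitinib they gave 12, with measured values from -0.55 for ADCY7, an adenylyl cyclase, to 0.32 for GNAS, the Gs subunit through which A2B signals. ADCY2, another adenylyl cyclase gene, was at least 3.06-fold higher with sunitinib by the probe used, but its signals of 12.5, 10.3 and 26.4 were near the background, and it was within 2-fold without scaling, at 0.54, and with normexp. The other ADCY2 probe was well above background on the cordyceps array only, with signals of 4.36, 75.2 and 4.38. The probes of ADCY2 thus disagreed on which array was the brightest.

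Of the genes of cAMP breakdown and response, 11 could be compared for cordyceps, from -0.39 for PRKACB, a catalytic subunit of protein kinase A, to 0.62 for PRKAR2B, a regulatory subunit. By the probes used none was over 2-fold from control, but the direction of PRKACB turned with the probe: a dimmer probe of it gave 1.11, and the mean of its probes was 0.36. A dimmer probe of CREM, a cAMP-responsive transcription factor gene named after its values were seen, gave 1.16, against 0.60 by the probe used. For sunitinib 12 could be compared and 3 were over 2-fold higher, against 6.41% of all genes compared. PDE3A, a phosphodiesterase gene, had signals of 4.94 on the control, 8.12 on the cordyceps and 37.9 on the sunitinib array. PDE3A was well above background on the sunitinib array only, where it was at least 4.38-fold higher, a bound. PDE4C, another phosphodiesterase gene, had signals of 27.9, 30.1 and 33.5 in the same order, near the limit of detection. The log2 ratio with sunitinib was 1.33 for PDE4C and 1.05 for PRKAR2B. Without scaling these became 0.26 and -0.02, and both were also within 2-fold with normexp, as PRKAR2B was with median scaling. A second probe of PDE4A, a phosphodiesterase gene named after its values were seen, gave 1.07 for sunitinib, against 0.16 by the probe used. At the low end for sunitinib was PRKACB at -0.16.

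**Figure D5:**
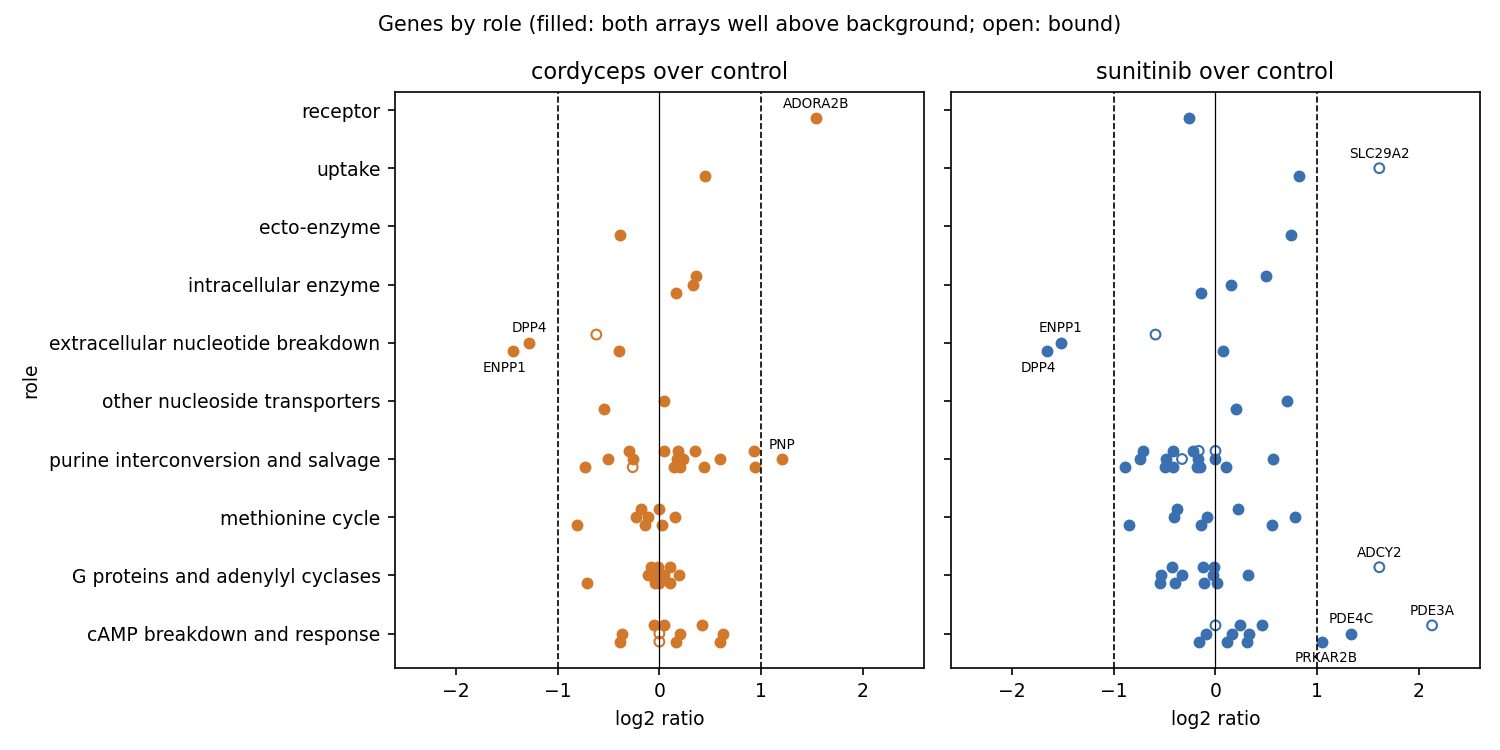
The x axis gives the log2 ratio over the control array, and the y axis the role, for the members and the pathway genes; filled points were well above background on both arrays, open points are bounds, and dashed lines mark 2-fold. ADORA2B at 1.54 and PNP at 1.21 lie beyond the upper line for cordyceps, and ENPP1 and DPP4 lie beyond the lower line on both arrays.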

How the data were processed

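Total RNA of TK-10 cells, 1 sample per condition, was labelled with Cy3 and hybridised to 3 arrays of 62976 spots on 1 slide, scanned once. The deposited intensity values are the processed signals that the authors obtained with Feature Extraction 11.5.1.1, which subtracts background and marks each spot as well above background, saturated or outlier, and the deposited marks are given as other values of 0 or 1. The file headers describe single-colour Agilent arrays, while the study's methods describe another array, so the headers were followed. The series matrix, unscaled between arrays, equalled these signals within 0.01% for 99.9% of probes on each array. Control spots and outlier spots were left out (63 to 121 outlier spots an array, 0 saturated), repeated spots were averaged within each probe, and signals were taken on the log2 scale relative to the 75th percentile of each array. That scaling takes total RNA output as equal between arrays and can shift every ratio together. Probes were named by accession through the RefSeq table of GRCh38.p14, which gave a name to 31104 probes and 22430 genes, and the table's upstream sequences were used as printed. The probe coordinates in the files, on hg19, were not used.

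A gene was represented by its probe with the highest mean log2 signal over the 3 arrays and was compared when either array of the pair measured that probe well above background. Where 1 array did not, its place in the ratio was taken by the larger of the probe's signal and the lowest signal well above background there, which makes the ratio a bound. A gene was called past 2-fold, the size limit in the study's methods. The combined error joins the software's errors of both signals, and gives the 95% limit under a normal error. Every p-value was left out, since each condition had 1 array. The number of arrays limits the precision. The genes named were the 10 members with every probe, each pathway gene over 2-fold in either comparison, and the highest and lowest measured gene of each role. PAX8, PAX2, LHX1, CDH6, KRT18, EPCAM, CA9, COL1A1, DCN and PDGFRB were named as markers. The members and lists were chosen with earlier results of these data known. Alternatives changed the scaling, background correction (normexp in limma 3.58.1, R 4.3.3), detection filter, choice of probe, outlier spots, the bright area and the size limit. Calculations used Python 3.11.15 with numpy 2.4.6, pandas 2.3.3 and scipy 1.17.1, and were tested on simulated data.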

Additional observations from a re-analysis of the deposited data

How the results depend on the processing

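No paired analysis was possible because each condition had 1 array and the labels carry no replicate numbers. Of 152 counts and medians recomputed under the alternatives, 114 held and 38 moved, where a count held if it stayed within 1.5-fold of its reported value and a median if it stayed within the median combined error of all genes, 0.21. Of 155 values of single members, 123 stayed within the error that the software gives for the pair of signals, taken as measured also for the SLC29A2 bound, and 32 did not. Over all genes, scaling to the median shifted the median log2 ratio by 0.18 for cordyceps and -0.31 for sunitinib, and leaving out scaling shifted it by -0.24 and -1.05, so the members are best read against these shifts. The counts over 2-fold higher and lower over all genes were 435 and 404 for cordyceps and 954 and 967 for sunitinib. They became 733 and 222, and 517 and 1927, with median scaling, and 265 and 829, and 156 and 7987, without scaling. With normexp those for sunitinib were 319 and 837, and with no filter they were 1678 and 962 for cordyceps and 6230 and 1498 for sunitinib.

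For cordyceps over control, the members over 2-fold numbered 2 higher and 1 lower both with no filter on dim probes and with the looser criterion of a positive and significant signal. Their median was 0.57 with median scaling and 0.091 without scaling. The pathway genes over 2-fold higher numbered 3 with median scaling, 0 without scaling, 0 with normexp, 5 with no filter, 2 with the mean of all probes, 2 with the brightest probe over both arrays compared and 6 at a 1.5-fold limit. Those over 2-fold lower numbered 1 with normexp and 6 at 1.5-fold, and the pathway median was 0.22 with median scaling and -0.23 without scaling.

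For sunitinib over control, the members higher numbered 0 without scaling, with normexp, and when both arrays had to be well above background, 2 with no filter and 3 at 1.5-fold, and the members lower numbered 2 without scaling. Their median was 0.17 with median scaling, -0.58 without scaling and 0.24 with normexp. The pathway genes higher numbered 1 without scaling, 1 with normexp, 2 when both arrays had to be well above background and 19 with no filter. Those lower numbered 6 with median scaling, 35 without scaling, 6 with no filter, 6 with the looser criterion and 7 at 1.5-fold, and the pathway median was -0.45 with median scaling, -1.19 without scaling and 0.12 with no filter. The unscaled values carry the lower overall brightness of the sunitinib array, and the cause of the other moves was not tested. Signals near background limit ADORA1, ADORA2A, ADORA3 and SLC29A2, which give no measured ratio or a bound.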
